A study of Mus musculus with 2 samples.

Results

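The 33 genes described here carry fatty acids into the cell and break them down for energy. They were taken as a fixed list that follows the pathway from uptake at the plasma membrane, through activation to acyl-CoA and carnitine transport into mitochondria, to mitochondrial and peroxisomal oxidation, and all 33 were found by symbol among the 32285 features of both matrices. The list did not use the measured values, although it was drawn up with earlier results of these data known. Transcripts were measured by droplet-based single cell RNA-seq in Lin-Sca-1+c-Kit+ (LSK) cells of mouse bone marrow, the fraction that holds stem cells and early progenitors. Both groups were mice 8 to 10 weeks old, in the B6 background per the study methods, with the SCLtTA/BCR-ABL transgenes, in which the SCL promoter drives BCR-ABL in stem and progenitor cells once tetracycline is withdrawn, and cells were taken 2 weeks after that induction. The miR-142 WT CML library came from BCR-ABL+ mice with intact miR-142, and the miR-142 KO CML library from Mir142 KO BCR-ABL+ mice, a germline deletion that is not limited to LSK cells. There was 1 library per group, and how many mice were pooled in each was not stated, so no test of the genotypes was possible. All intervals are 95% intervals for counting error alone and leave out any variation from mouse to mouse.

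Fatty acids reach the cytoplasm through membrane and binding proteins and are activated to acyl-CoA by long-chain acyl-CoA synthetases. The carnitine palmitoyltransferases CPT1 and CPT2 and the carrier between them move the long chains into the mitochondrial matrix, and the CPT1 reaction is regarded as the rate-limiting entry point. In the matrix each turn of beta-oxidation runs through a dehydrogenase, a hydratase, a second dehydrogenase and a thiolase, and the electrons taken by the first enzyme pass through electron transfer flavoprotein to the respiratory chain. Very long chains are first shortened in peroxisomes. Normal hematopoietic stem cells rely on fatty acid oxidation for their maintenance, and stem cells of several leukemias have been described as depending on it.

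To check the labels, the host transcript of the deleted miRNA was examined first. Mir142hg was counted with 1260 UMIs in the WT library and with 20 in the KO library, which came to 9.12 and 0.126 counts per 1000000 UMIs of all cells in the library (CPM). The hairpin gives a pair of mature miRNAs, and these are shown because they decide which transcripts can be direct targets. Both lie on the plus strand of chromosome 11 (RefSeq, GRCm38.p6), miR-142-5p at chr11:87756867-87756887 and miR-142-3p at chr11:87756903-87756925, and capitals mark the seed, bases 2 to 8.
miR-142-5p: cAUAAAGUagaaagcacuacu
miR-142-3p: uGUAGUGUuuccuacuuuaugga

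The longest annotated 3′ untranslated region of each gene (GENCODE M21, GRCm38) was searched on the transcript strand for the complement of each seed, ACTTTAT for miR-142-5p and ACACTAC for miR-142-3p. All 33 genes had such a region, and 3 of them held a match. Acsl4, a synthetase with a preference for arachidonic acid, held 1 match to miR-142-3p at chrX:142320261-142320267 on the minus strand. Acad9, a dehydrogenase that also serves in the assembly of respiratory complex I, held 2 matches to miR-142-5p at chr3:36091386-36091392 and chr3:36091768-36091774 on the plus strand. Etfdh, which hands electrons from the flavoprotein to ubiquinone, held 1 match to miR-142-5p at chr3:79603810-79603816 on the minus strand. The sites are printed on the strand of the transcript with the matched letters in capitals, and in the second Acad9 site and the Etfdh site the match is followed by an A, the letter that favours seed pairing.
Acsl4 site: atgtattaACACTACtcaaagca
Acad9 site 1: ccacctagACTTTATgttcttca
Acad9 site 2: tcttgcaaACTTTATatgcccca
Etfdh site: taaataaaACTTTATaaataaac

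Among the 7331 genes tested that had such a region, 16.01% held the miR-142-5p match and 6.60% the miR-142-3p match, and the regions of the 33 genes were shorter, with a median of 595 bases against 1066. The 3 genes with a match stood at nearly the same level in both libraries. Acsl4 was at 16.3 CPM in miR-142 WT CML and 16.5 CPM in miR-142 KO CML, with a log2 ratio (KO over WT) of 0.02 and an interval of -0.06 to 0.10. Acad9 was at 16.2 and 15.9 CPM (-0.03, -0.11 to 0.06), and Etfdh at 15.3 and 15.4 CPM (0.02, -0.07 to 0.10). Inside the cell groups described further on, Etfdh was above 0 in 6 of 6, from 0.02 to 0.34, while Acad9 was below 0 in the 5 groups where it reached 10 CPM. Among granule-high barcodes with 30000 to 50000 UMIs both turned, to -0.12 (-0.37 to 0.14) and 0.05 (-0.20 to 0.30). The Cpt1a region of 1892 bases held neither 7-letter match, which says only that these letters are absent from that annotated window. In the 29 RefSeq promoter windows (250 bases before to 50 after the start) that 26 of the genes had, the antioxidant response element TGACNNNGC, searched on both strands, was present in 1, that of Ehhadh, against 12.4% of all 32851 windows.

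Cells were taken as barcodes with at least 8000 UMIs, of which under 10% were mitochondrial, which left 5363 barcodes with a median of 19443 UMIs in miR-142 WT CML and 5458 with a median of 24181.5 in miR-142 KO CML. The sort markers Kit (86.4 and 68.3 CPM), Ly6a, which codes for Sca-1 (96.8 and 153 CPM), and Cd34 were present, and Cd3e, Ms4a1 and Ly6g were at or under 0.09 CPM. The 8 markers of lineage cells outside the gate summed to 221 and 315 CPM, nearly all from Nkg7 (207 and 301 CPM), a granule protein gene of cytotoxic lymphocytes, with Itgam at 8.27 and 10.7 CPM, Cd79a at 3.69 and 0.0505 CPM and Adgre1 at 2.43 and 2.35 CPM. Barcodes were gated on marker genes into HSC-like (1566 in WT and 495 in KO), lymphoid-primed-like (860 and 495), megakaryocyte-like (345 and 212) and mast/basophil-like cells (212 and 312), and into barcodes rich in the granule transcripts Elane, Mpo, Prtn3, Ctsg and Ms4a3, called granule-high. Granule-high barcodes made up 16.5% of the WT library and 52.0% of the KO library, and their leading genes also held S100a8, Lcn2 and Wfdc21 of late neutrophils, so they are named by their rule and not as a cell type. The summed level of 7 late neutrophil markers was 79.6 CPM (WT) and 568 CPM (KO), with 6 of 7 higher in KO, and that of 9 lymphoid-primed markers 1471 and 386 CPM. Most of the lymphoid-primed difference was the immunoglobulin transcript Ighm, at 1040 CPM (WT) and 6.78 CPM (KO). Ighm also counted as a marker for the lymphoid-primed-like gate, and antibody-secreting barcodes numbered 37 in WT and 0 in KO. The part of Ighm in the make-up of that gate was not tested. Of the 9 markers 1 was higher in KO, Cd52, at 146 and 221 CPM. Because the libraries differed so much in make-up, each result is given over all barcodes and inside the gated groups, and the part of late neutrophil RNA in it was not tested.

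Over all barcodes the fatty acid genes stood close to their WT level in the KO library, with 2 exceptions, Etfb and Acsl1. Of the 33 genes, 26 reached a mean of 10 CPM and were compared, and their counting intervals were at most 4.53% of the level either way. Etfb and Acsl1 were at least 25% higher in KO (7.69% of the 26), where 7.6% of all 7482 genes tested were, and 0 of the 26 were at least 20% lower, the same fold downward, where 18.8% of all genes were. With median-of-ratios size factors these shares of all genes were 11.8% and 12.5%, and 4 and 0 of the 26. Both also passed 1.5-fold, which 2.78% of all genes did upward and 4.85% downward. The share that was higher is thus near the background. The median log2 ratio of the 26 was 0.02 against -0.08 over all genes tested, and 15 of 26 had a ratio above 0 where 38.1% of all genes did. The counting interval lay above 0 for 12 genes, below 0 for 8 and across 0 for 6. With every barcode thinned to 8000 UMIs, 15 of 26 genes were found in a larger share of KO than of WT barcodes, against 22 of 26 without thinning, where the KO barcodes were deeper.

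**Figure D1:**
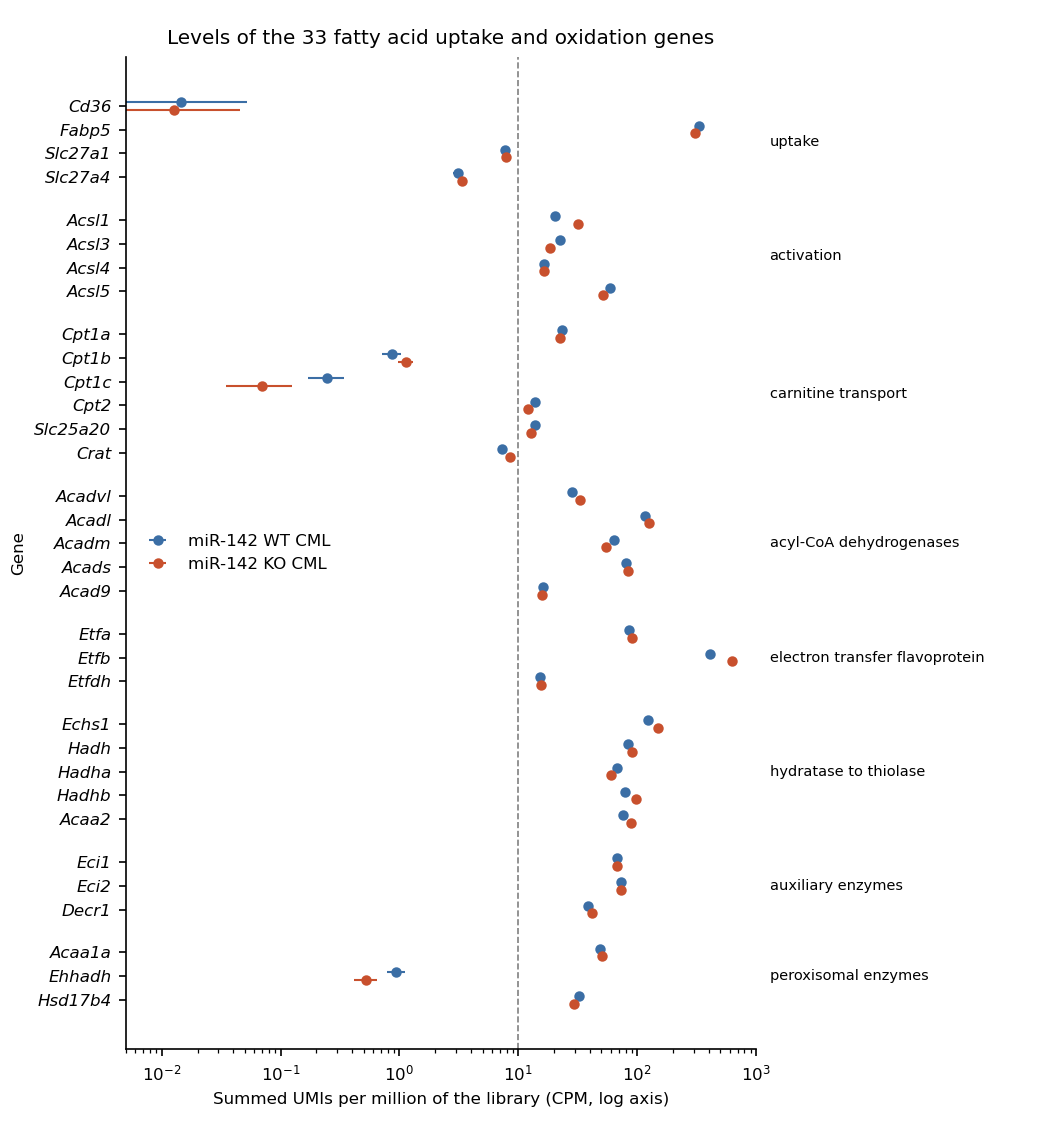
Level of each of the 33 genes, in CPM on a log axis, ordered by pathway step, with miR-142 WT CML in blue and miR-142 KO CML in red. Bars are exact Poisson intervals, the dashed line is the minimum of 10 CPM, and most pairs of points lie side by side, with Acsl1 and Etfb set apart.

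The UMIs of all 33 genes together came to 2026 CPM in miR-142 WT CML and 2297 CPM in miR-142 KO CML (log2 ratio 0.18, 0.17 to 0.19). Etfb alone gave 81.5% of that difference, and without it the sum came to 1615 and 1665 CPM (0.04, 0.04 to 0.05). By step, electron transfer flavoprotein had the highest ratio (0.53) and the enzymes from hydratase to thiolase followed (0.18), whereas uptake (-0.09), carnitine transport (-0.05), activation (0.00), the acyl-CoA dehydrogenases (0.04), the auxiliary enzymes (0.03) and the peroxisomal enzymes (-0.02) were all within 0.1 of equal levels. The sums for uptake and carnitine transport changed sign in the barcodes outside the granule-high gate, to 0.27 and 0.07. The sign for uptake rested on the mast/basophil-like barcodes, since it was 0.01 in HSC-like, -0.22 in lymphoid-primed-like, -0.02 in megakaryocyte-like and -0.07 in ungated barcodes.

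**Figure D2:**
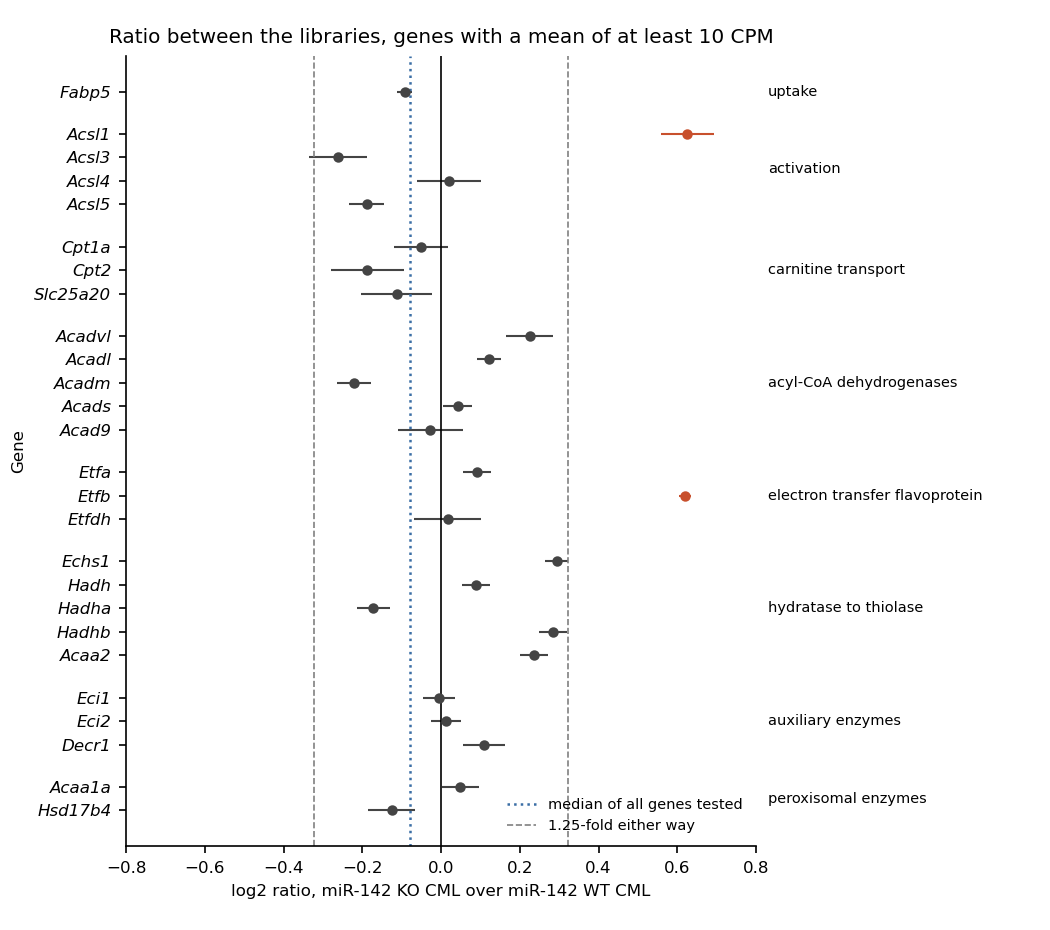
Log2 ratio of miR-142 KO CML over miR-142 WT CML for the 26 genes with a mean of at least 10 CPM, by pathway step, with counting intervals as bars. Dashed lines mark 25% higher and 20% lower, Etfb and Acsl1 (red) lie beyond them at 0.62 and 0.63, and the dotted line is the median of all genes tested, at -0.08.

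Fatty acid uptake rested almost wholly on 1 transcript. Fabp5 (chr3:10012548-10016607), a cytoplasmic carrier of long-chain fatty acids, was at 329 CPM in miR-142 WT CML and 309 CPM in miR-142 KO CML (-0.09, -0.11 to -0.07). Cd36, the fatty acid translocase of muscle, fat and many leukemic cells, had 2 UMIs in each library, below the 3 that separate a level from none. The fatty acid transport proteins Slc27a1, at 1070 and 1255 UMIs, and Slc27a4, at 433 and 532 UMIs, stayed below 10 CPM. Inside the granule-high barcodes the Fabp5 ratio was -0.54 (442 and 303 CPM), and -0.30 among those with 30000 to 50000 UMIs. Over all barcodes outside that gate the Fabp5 ratio was 0.26, but with the mast/basophil-like barcodes also left out it was -0.04 (-0.08 to -0.01), at 238 and 231 CPM. Mast/basophil-like barcodes, which had the most Fabp5, made up 3.95% of all WT and 5.72% of all KO barcodes. Outside the granule-high gate they weighed more in KO, with 212 beside 4265 other barcodes in WT and 312 beside 2309 in KO.

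Among the long-chain acyl-CoA synthetases, which activate fatty acids, the balance of isoforms differed between the libraries while their sum did not. The 4 genes together were at 118 CPM (WT) and 119 CPM (KO) (0.00, -0.03 to 0.03). Acsl1 (chr8:46471037-46536051), the isoform tied to oxidation in heart, muscle and fat and to myeloid activation, was at 20.5 CPM (WT) and 31.6 CPM (KO) (0.63, 0.56 to 0.69), 1.54-fold higher. Acsl5, the mitochondrial and reticular isoform with the most UMIs of the 4, was at 59.3 and 52.0 CPM (-0.19, -0.23 to -0.14). Acsl3, which sits on the reticulum and on lipid droplets, was at 22.2 and 18.5 CPM (-0.26, -0.34 to -0.19), and part of its span is shared with Utp14b on the same strand, so its reads are less certain. As a share of the UMIs of the 4 genes, Acsl1 made up 17.3% in WT (16.7% to 17.9%) and 26.6% in KO (26.0% to 27.2%), and Acsl5 50.1% and 43.8%. These are tags of the 3′ end, 1 per captured molecule and not divided by length, and capture can differ between genes.

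The Acsl1 share was not higher everywhere. It was 19.3% in WT and 29.4% in KO among granule-high barcodes, 13.8% and 19.7% among lymphoid-primed-like cells and 11.7% and 17.3% among mast/basophil-like cells, but 18.5% and 17.3% among HSC-like cells. In HSC-like cells the Acsl1 level was 21.7 CPM (WT) and 18.1 CPM (KO) (-0.27, -0.56 to 0.02), so the direction seen over all barcodes did not extend to them. Without granule-high barcodes the Acsl1 ratio was 0.20. Over both libraries weighted to one make-up of groups it only narrowly passed 25%. In the 8 alternatives tried the Acsl1 ratio lay from 0.20 to 0.71, and it was at least 25% higher in 6 of them. Mast/basophil-like cells had another profile, with Acsl4 at 30.9% and 33.2% of the family.

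**Figure D3:**
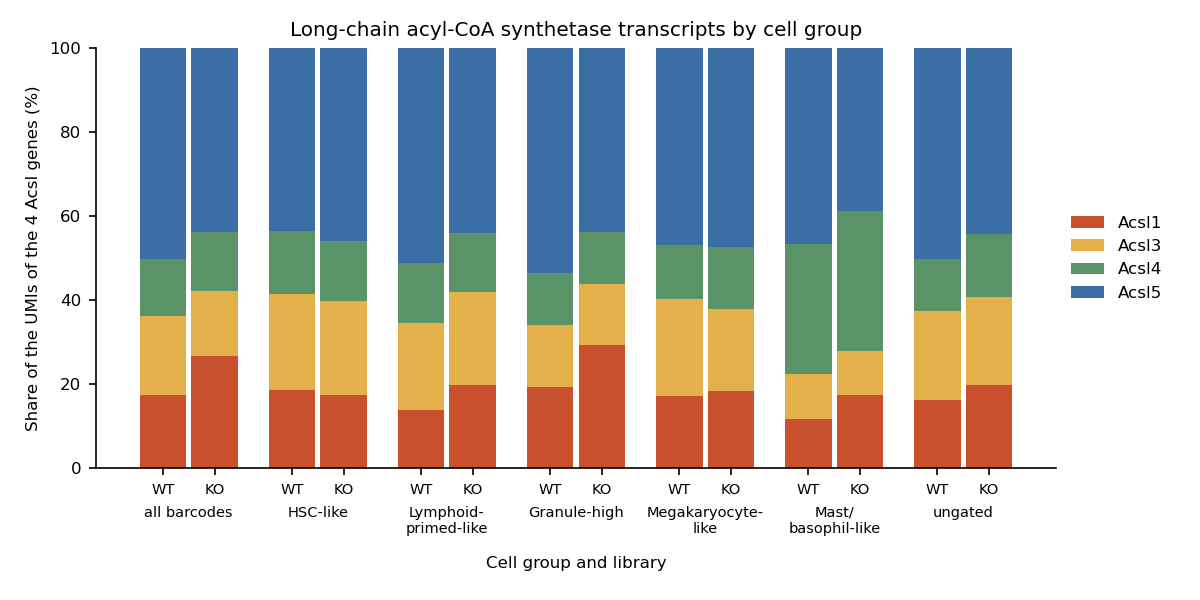
Share of the UMIs of Acsl1, Acsl3, Acsl4 and Acsl5 that each gene holds, in percent, for all barcodes and 6 cell groups, with the WT bar left of the KO bar. The red Acsl1 part grows from 17.3% to 26.6% over all barcodes but not in HSC-like cells (18.5% and 17.3%), and the green Acsl4 part is largest in mast/basophil-like cells.

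Among the Cpt1 genes of carnitine transport, nearly all UMIs were those of Cpt1a. Cpt1a (chr19:3322334-3385733) was at 23.4 CPM in miR-142 WT CML and 22.6 CPM in miR-142 KO CML (-0.05, -0.12 to 0.02) and held 95.5% and 94.96% of the UMIs of the 3 Cpt1 genes. Cpt1b, the muscle isoform, had 119 UMIs in WT (0.861 CPM, 0.713 to 1.03) and 179 in KO (1.13 CPM, 0.970 to 1.31), a log2 ratio of 0.39 with an interval of 0.05 to 0.74. Cpt1c, the isoform of neurons, had 34 and 11 UMIs. The isoform make-up of the family was therefore nearly the same in both libraries, with Cpt1b at 3.51% and 4.75%.

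Inside the gated groups Cpt1a read differently from the pooled value. It was above 0 in 6 of 6 groups as gated, although the pooled ratio was slightly below 0. In the granule-high group the median depth was 54108.5 UMIs in WT and 38234 in KO. There the direction turned among barcodes with 30000 to 50000 UMIs, to -0.18 (-0.40 to 0.05). Among granule-high barcodes with no late neutrophil UMI in the thinned counts it was 0.30 (0.05 to 0.54). Their median depth was 48488 UMIs in WT and 24557 in KO. Outside the granule-high and mast/basophil-like gates the Cpt1a ratio was 0.21 (0.11 to 0.31). The ratio was 0.10 (-0.12 to 0.31) in HSC-like cells, 0.35 (0.12 to 0.57) in lymphoid-primed-like cells, 0.16 (0.04 to 0.27) in granule-high barcodes and 0.18 (0.02 to 0.34) in ungated barcodes. It was 0.56 (0.21 to 0.90) in megakaryocyte-like cells, from 24.9 to 36.7 CPM, and 0.76 (0.32 to 1.21) in mast/basophil-like cells, from 13.4 to 22.7 CPM. The granule-high barcodes, which were more frequent in KO, had a low Cpt1a level in both libraries, 17.4 and 19.4 CPM, against 30.9 and 33.05 CPM in HSC-like cells. With both libraries weighted to one make-up of cell groups, the Cpt1a ratio was 0.22.

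Over all barcodes the inner-membrane steps were lower in KO by less than 20%. Cpt2, which returns the acyl group to coenzyme A, was at 13.7 and 12.1 CPM (-0.19, -0.28 to -0.09). Slc25a20, the carnitine-acylcarnitine carrier, was at 13.7 and 12.7 CPM (-0.11, -0.20 to -0.02), but 13.1 and 19.9 CPM in lymphoid-primed-like cells (0.61, 0.31 to 0.90). The direction of Slc25a20 turned with one make-up of cell groups (0.10) and without granule-high barcodes (0.08), and it was 0.15 (0.01 to 0.29) outside the granule-high and mast/basophil-like gates. Crat, which acts on short acyl groups, had 1001 and 1339 UMIs and stayed below 10 CPM.

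The acyl-CoA dehydrogenases, each suited to a range of chain lengths, did not move together. Acadvl, for very long chains, was at 28.1 CPM (WT) and 32.8 CPM (KO) (0.22, 0.16 to 0.29), and Acadl, for long chains, at 115 and 126 CPM (0.12, 0.09 to 0.15). Acadm, for medium chains, went the other way, from 64.0 to 54.9 CPM (-0.22, -0.26 to -0.18). Acads, for short chains, was at 80.8 and 83.2 CPM (0.04, 0.01 to 0.08). Acadm thus held 21.02% of the UMIs of the 5 dehydrogenases in WT and 17.6% in KO, and Acadl 37.9% and 40.2%. Inside the groups Acadvl, Acadl and Acads were above 0 in 6 of 6, with Acadvl at 0.28 in HSC-like cells and 0.34 in granule-high barcodes, while Acadm was at -0.01 in granule-high barcodes, 0.00 in lymphoid-primed-like and -0.15 in HSC-like cells. Acads was -0.02 (-0.13 to 0.08) in granule-high barcodes with 30000 to 50000 UMIs, and in mast-leaning barcodes Acads was -0.19 (-0.55 to 0.17) and Acadl -0.01 (-0.19 to 0.17).

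Electron transfer flavoprotein, the acceptor shared by these dehydrogenases, is a dimer of an alpha and a beta subunit, and only the beta transcript stood apart. Etfb (chr7:43444083-43457800) was counted with 56863 UMIs in the WT library and 100200 in the KO library, or 412 and 632 CPM (0.62, 0.61 to 0.63), 1.54-fold higher. Etfa, for the alpha subunit, was at 85.2 and 90.7 CPM (0.09, 0.06 to 0.13). Etfb made up 80.4% of the UMIs of Etfa, Etfb and Etfdh in WT and 85.6% in KO. After every barcode was thinned to 8000 UMIs, an Etfb UMI was found in 93.5% of WT and 97.3% of KO barcodes (98.2% and 99.1% unthinned), and no gated group lacked the gene, so a background share cannot be given.

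Etfb was higher in KO inside 6 of 6 groups as gated. The ratio was 0.52 (0.49 to 0.54) in granule-high barcodes, from 490 to 700.1 CPM, and 0.39 (0.33 to 0.45) in HSC-like cells, from 349.7 to 458 CPM. It was 0.32 in lymphoid-primed-like, 0.27 in megakaryocyte-like, 0.29 in ungated and 0.19 in mast/basophil-like barcodes. When the last gate was split by its proteases, as described further on, the ratio was -0.03 (-0.14 to 0.08; 451 and 442 CPM) in the mast-leaning and 0.46 (0.33 to 0.60) in the basophil-leaning barcodes. The KO level in HSC-like cells was thus still below the WT level in granule-high barcodes. Over all barcodes without the granule-high gate the ratio was 0.34, and in the 8 alternatives tried it lay from 0.34 to 0.70, each at least 25% higher. In granule-high barcodes with no late neutrophil UMI among the thinned counts (456 in WT and 343 in KO) it was 0.29, and among those with 30000 to 50000 UMIs it was 0.61. Outside the granule-high and mast/basophil-like gates the summed late neutrophil markers were at 4.32 CPM (WT) and 81.2 CPM (KO). In barcodes under 100 UMIs, taken as free RNA, Etfb was at 411 and 570 CPM. The part of such RNA in the Etfb ratios was not tested.

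The enzymes that complete the turn, from hydratase to thiolase, were mostly higher in KO, and by less than 25%. Echs1, the short-chain enoyl-CoA hydratase, was at 123 and 151 CPM (0.29, 0.27 to 0.32), with a ratio of 0.06 without granule-high barcodes. Hadh, the dehydrogenase for medium and short hydroxyacyl chains, was at 84.3 and 89.6 CPM (0.09, 0.05 to 0.12). Acaa2, the matrix thiolase, was at 75.9 and 89.4 CPM (0.24, 0.20 to 0.27). Its ratio was above 0 in 5 of 6 groups, but its level was 96.1 and 95.8 CPM in granule-high barcodes. With both libraries weighted to one make-up of cell groups, the Acaa2 ratio was 0.12.

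The subunits of the mitochondrial trifunctional protein, which carries out these steps for long chains, differed in opposite directions. Hadha, for the alpha subunit, was at 67.7 CPM (WT) and 60.1 CPM (KO) (-0.17, -0.21 to -0.13). Hadhb, for the beta subunit, was at 79.5 and 96.9 CPM (0.29, 0.25 to 0.32). The genes lie head to head on chromosome 5, Hadha at chr5:30118304-30155162 on the minus strand and Hadhb at chr5:30155248-30184593 on the plus strand, with 86 bases between their annotated starts. The opposite directions held in 6 of 6 groups, with Hadha from -0.25 to -0.11 and Hadhb from 0.17 to 0.40, and in all 8 alternatives. In HSC-like cells Hadha was at 72.7 and 65.2 CPM (-0.16, -0.31 to -0.01) and Hadhb at 72.2 and 92.6 CPM (0.36, 0.23 to 0.49).

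The auxiliary enzymes, which deal with the double bonds of unsaturated fatty acids, were close to equal. Eci1 was at 67.5 and 67.2 CPM, Eci2 at 73.1 and 73.8 CPM, and Decr1, the dienoyl-CoA reductase, at 38.7 and 41.8 CPM (0.11, 0.06 to 0.16). Decr1 was nevertheless at 0.37 both in granule-high barcodes and in lymphoid-primed-like cells. Among granule-high barcodes it was 0.18 (0.01 to 0.35) with 30000 to 50000 UMIs and 0.43 (0.25 to 0.60) with no late neutrophil UMI. In mast-leaning barcodes Decr1 was -0.43 (-0.70 to -0.16), and in basophil-leaning barcodes 0.17 (-0.22 to 0.57). Of the peroxisomal enzymes, Acaa1a was at 49.0 and 50.7 CPM (0.05, 0.00 to 0.10) and Hsd17b4 at 32.3 and 29.6 CPM (-0.13, -0.18 to -0.07). Ehhadh had 129 and 83 UMIs, too few for the comparison. Acaa1b, a near copy of Acaa1a, had 1 UMI in each library, and reads shared between such copies may have been lost in counting.

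To ask how the genes varied among cell types, their levels were set side by side in the 6 groups with at least 100 barcodes in both libraries. The highest group was 1.13 to 4.09 times the lowest in WT, with a median of 1.66 over the 26 genes, and 1.14 to 4.60 times in KO, with a median of 1.61. In both libraries 15 of 26 genes had the same highest group, but for only 5 of them (Fabp5, Acsl4, Acadl, Echs1 and Acaa2) did its interval lie above that of the second group in both. For 7 (Cpt2, Acadm, Etfdh, Etfa, Acadvl, Hadha and Acads) the intervals overlapped in both libraries, so that their first place is not separated from the next. By level, Cpt2, Acadm, Etfdh and Eci2 came first in HSC-like cells, Acsl1, Etfa, Echs1 and Acaa2 in granule-high barcodes, and Fabp5, Acsl4, Acadl and Decr1 in mast/basophil-like cells, with Acadvl and Hadha first in megakaryocyte-like and Acads in lymphoid-primed-like cells. Mast/basophil-like cells were the lowest group for 16 of 26 genes in WT and 13 of 26 in KO.

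**Figure D4:**
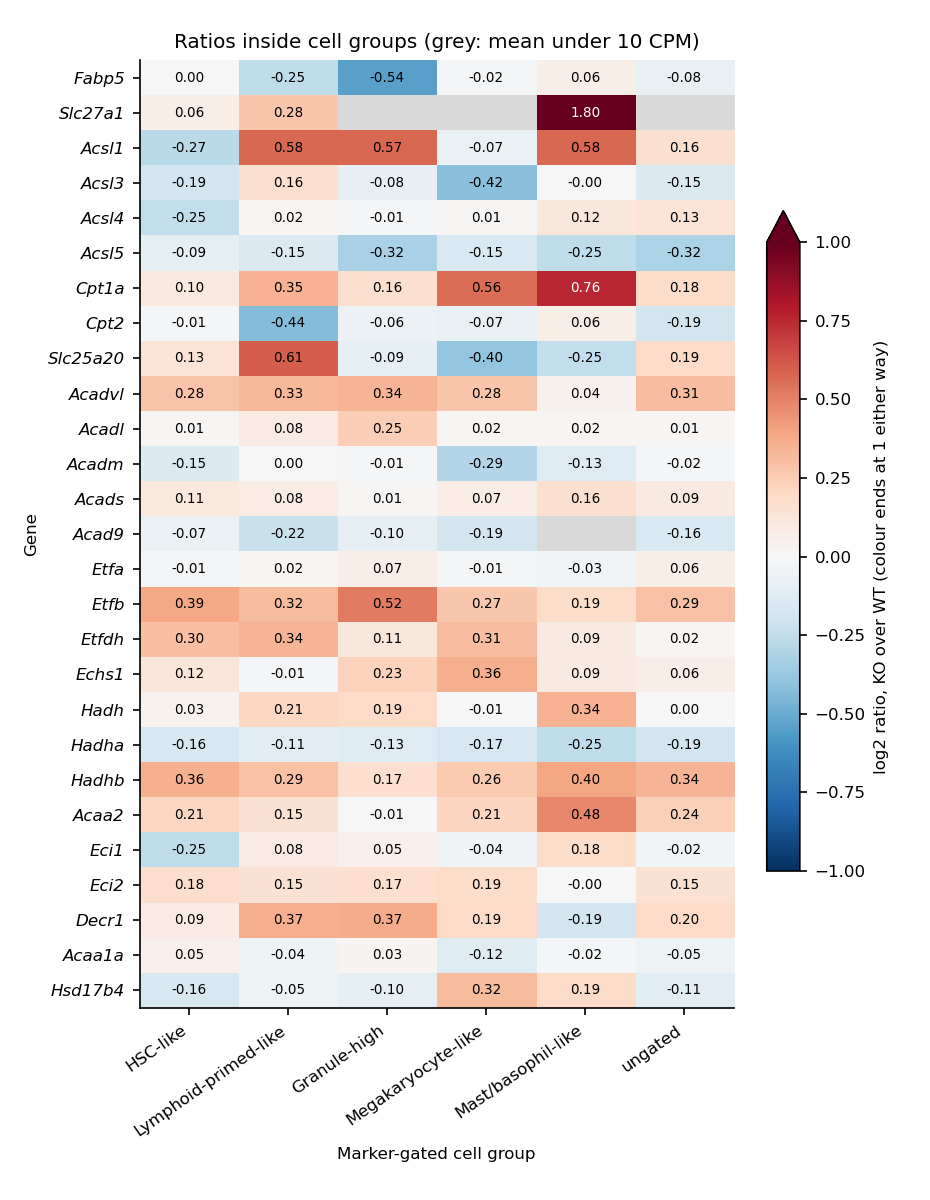
Log2 ratio of miR-142 KO CML over miR-142 WT CML inside each of 6 marker-gated cell groups, for the genes with a mean of at least 10 CPM in at least 1 group (grey where the mean is lower). Cpt1a, Acadvl, Etfb and Hadhb are above 0 throughout, Acsl5 and Hadha below 0 throughout, and the value of 1.80 for Slc27a1 in mast/basophil-like cells lies beyond the colour scale.

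Inside the groups between 1 and 6 of the genes were higher by that fold and between 0 and 2 were lower, and each count is set beside the share of all genes. In HSC-like cells 2 of 27 genes were at least 25% higher (Etfb and Hadhb), where 7.86% of all genes tested there were, and 0 were at least 20% lower, where 13.7% were. In lymphoid-primed-like cells 6 of 27 were higher (Acsl1, Cpt1a, Slc25a20, Acadvl, Etfdh and Decr1) and Cpt2 was lower (-0.44), against 9.64% and 12.7%. In granule-high barcodes Acsl1, Acadvl, Etfb and Decr1 were higher and Fabp5 and Acsl5 lower, against 7.99% and 10.6%. Megakaryocyte-like cells had 2 higher (Cpt1a and Echs1) and 2 lower (Acsl3, and Slc25a20 with an interval across 0), against 9.23% and 19.7%. Mast/basophil-like cells had 6 of 26 higher and 0 lower, against 18% and 13.9%, and ungated barcodes had Hadhb higher, against 6.5% and 9.08%. The summed level of the 33 genes was higher in KO by 0.09 to 0.11 in each of the 6 groups, less than the 0.18 over all barcodes. Without Etfb the ratio of the sum was -0.04 in granule-high barcodes and 0.03 to 0.08 in the other 5 groups.

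Among genes with at least 10 CPM in a group, the largest difference was that of Slc27a1 in mast/basophil-like cells. Slc27a1 (chr8:71568882-71587302), a fatty acid transport protein with acyl-CoA synthetase activity, had 47 UMIs there in WT and 232 in KO, or 10.2 and 35.4 CPM (1.80, 1.34 to 2.28). In HSC-like cells it was at 12.1 and 12.6 CPM (0.06, -0.30 to 0.41), and in granule-high barcodes at 3.77 and 5.31 CPM. Fabp5 had its highest level of the 6 groups in mast/basophil-like cells, at 839 and 872 CPM, while the next group, the granule-high barcodes, stood at 442 and 303 CPM.

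Because mast cells and basophils share the gate, it was split, after the values had been seen, by whether a barcode held more UMIs of the mast cell proteases Cma1 and Gzmb or of the basophil proteases Mcpt8 and Prss34. This gave 133 WT and 197 KO mast-leaning barcodes and 76 and 99 basophil-leaning barcodes, and 3 and 16 were left undecided. Fabp5 was at 688 CPM (WT) and 1285 CPM (KO) in the mast-leaning barcodes (0.90, 0.82 to 0.98), and at 1027 and 302 CPM in the basophil-leaning barcodes (-1.76, -1.88 to -1.64). The nearly equal level over the whole gate was thus made of opposite differences. Slc27a1 was higher in both parts, at 16.4 and 55.0 CPM and at 2.83 and 9.47 CPM, the latter from 6 and 24 UMIs. Cpt1a was higher in both as well, at 16.4 and 26.4 CPM (0.69) and at 8.95 and 18.2 CPM (1.02), with intervals above 0. The summed late neutrophil markers were at 16.4 and 157 CPM in the mast-leaning and at 85.3 and 206 CPM in the basophil-leaning barcodes, and their part in these differences was not tested.

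**Figure D5:**
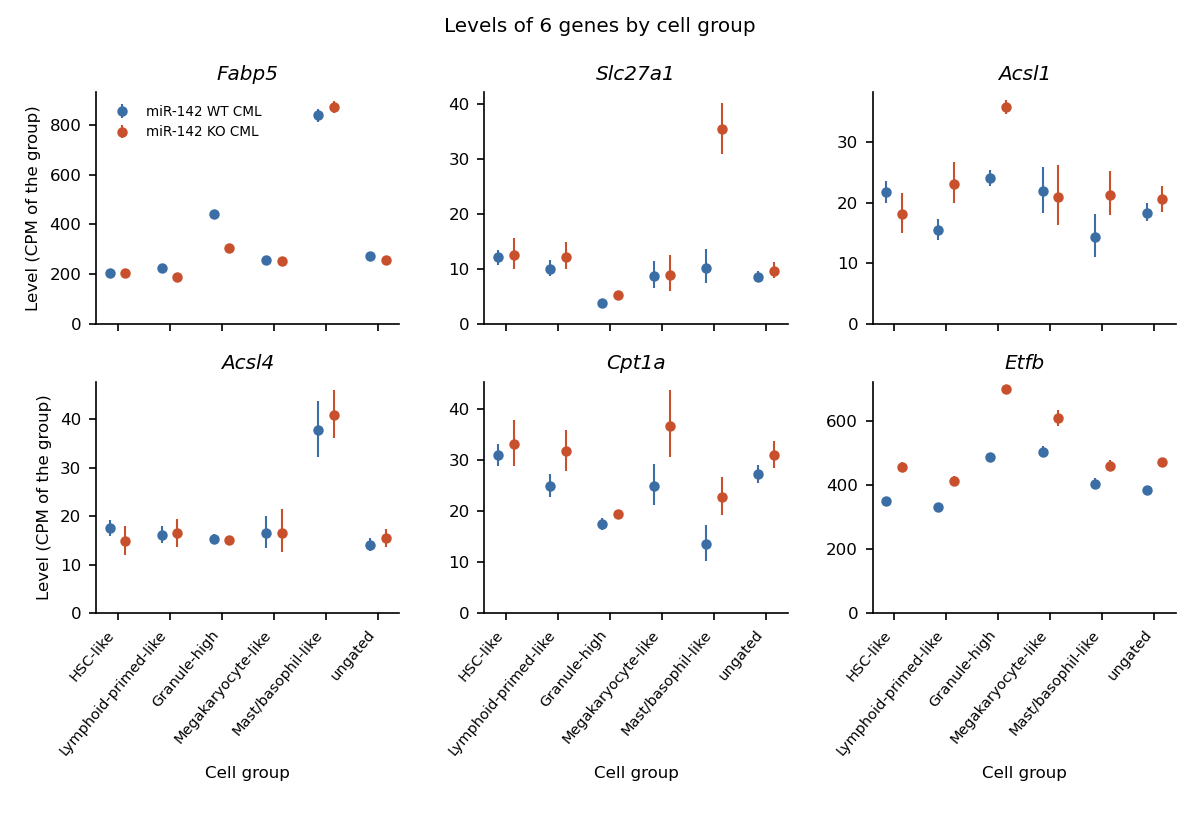
Level of Fabp5, Slc27a1, Acsl1, Acsl4, Cpt1a and Etfb in 6 cell groups, in CPM of the group on axes that start at 0, with miR-142 WT CML in blue and miR-142 KO CML in red and Poisson intervals as bars. The KO point lies above the WT point in every group for Etfb and Cpt1a, and Slc27a1 reaches 35.4 CPM only in KO mast/basophil-like cells.

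Cycling barcodes, those with at least 4 markers of S or of G2/M phase in the thinned counts, made up 70.7% of WT and 71.6% of KO barcodes. Of the 26 genes, 10 were higher in cycling barcodes in both libraries and 13 were lower in both. No share over all genes was taken for this comparison, so the counts cannot be called particular to these genes. Acsl5 was at 62.6 CPM in cycling and 40.1 CPM in other WT barcodes, and Etfb at 426 and 329 CPM. Acadm went the other way, at 60.9 and 82.0 CPM in WT and at 52.8 and 68.4 CPM in KO, as did Cpt1a, at 22.7 and 27.6 CPM in WT and 21.3 and 30.7 CPM in KO. Fabp5 was higher in cycling barcodes in WT (341 against 259 CPM) and lower in KO (305 against 329.9 CPM), so that over non-cycling barcodes alone its ratio between the libraries was 0.35. Shares of cycling cells also differed between the 6 groups, from 52.4% in WT and 35.3% in KO mast/basophil-like cells to 97.0% and 89.4% in granule-high barcodes. They were 55.3% and 42.4% in HSC-like cells, and the part of the cell cycle in the differences was not tested.

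The other genes of fatty acid metabolism were described by lists that had likewise been drawn up with earlier results known, and the counts are to be read beside the 7.6% of all genes that were at least 25% higher and the 18.8% that were at least 20% lower. They were measured over all barcodes only, so the part of the make-up of the libraries in their ratios was not tested. Of 17 further oxidation genes with a mean of at least 10 CPM, Phyh, which starts alpha-oxidation in peroxisomes (0.51), and Abcd2, a peroxisomal importer of very long chains (0.83), were at least 25% higher, and Crot, which makes acylcarnitines in peroxisomes (-0.36), was at least 20% lower. Abcd2 was at 7.22 CPM (WT) and 12.8 CPM (KO), so it passed the minimum only through its KO level. Dbi, the acyl-CoA binding protein, was at 436 and 678 CPM (0.64), close in size to Etfb, whereas the lipoprotein receptor Vldlr was at 36.4 and 24.1 CPM (-0.59).

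Of 14 genes of synthesis and storage, Dgat1, for the last step of triglyceride synthesis, was higher (0.47), and Elovl6 (-0.62) and Fads2 (-0.40), which lengthen and desaturate chains, were lower. Of 3 lipolysis genes, Abhd5, the activator of the triglyceride lipase (0.54), was higher and Lipa, the lysosomal acid lipase (-0.45), lower. Of 10 regulators, Esrra, a nuclear receptor that drives oxidative genes, was at 14.6 and 20.8 CPM (0.51) and Hif1a at 34.0 and 61.3 CPM (0.85), and Sirt3, the mitochondrial deacetylase (-0.36), and Foxo3 (-0.66) were lower. Ppara had 1 UMI in each library and Pparg 11 and 48, while Nfe2l2, which codes for NRF2, was at 63.3 and 72.8 CPM (0.20, 0.16 to 0.24), under 25% higher. Prkca, which codes for protein kinase C alpha, had a mean below 10 CPM, at 11.3 and 7.49 CPM (-0.59, -0.70 to -0.48). Dgat2, of the synthesis and storage list, was also below it, with 449 and 1669 UMIs (1.70, 1.55 to 1.85).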

How the data were processed

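The authors made the matrices with Cell Ranger 6.1.2 on mm10, per the submitters' processing notes, although the file headers name an earlier release. The deposited values are raw UMI counts per gene and barcode, unfiltered and not normalized. There was 1 library per group, with about 8000 cells captured each. Barcodes with at least 8000 UMIs and under 10% mitochondrial UMIs were kept (the study methods used over 300 UMIs), and the mitochondrial filter removed 24 and 4. The libraries shared 4 barcodes. Doublets were not removed, and 24 WT and 152 KO barcodes passed more than 1 gate. An alternative left these out together with the 5% of barcodes with most UMIs.

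Each barcode was thinned to 8000 UMIs for gating, which left out none. A gate needed at least 4 of its markers. The granule-high gate needed at least 40 UMIs and 4 of 5 granule genes. Innate lymphoid-like (8 and 164 barcodes) and antibody-secreting barcodes (37 and 0) were too few to compare. The summed markers of the other lists were, in WT and KO CPM, 917 and 786 for HSC-like, 6370 and 14585 for granule genes, 263 and 236 for megakaryocyte-like, 99.2 and 94.0 for erythroid-like, 1428 and 1701 for mast/basophil-like, 61.3 and 149 for innate lymphoid-like, 3996 and 156 for antibody-secreting, 1145 and 1032 for S phase and 1660 and 1365 for G2/M phase.

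Levels are counts summed over barcodes and scaled to 1000000 (CPM). Log2 ratios carry exact conditional binomial intervals, levels exact Poisson intervals and shares exact Clopper-Pearson intervals, all at 95% and for counting error only. Genes were compared at a mean of 10 CPM or more and counted as different when KO was at least 25% higher or 20% lower, with no test, since 1 library per group allows none. A count of 3 was the floor for a level. Barcodes under 100 UMIs served as free RNA, in which the 26 genes stood at 0.429 to 1.22 times their level in cells. All 33 genes are accounted for. Other fatty acid genes are named where they passed 10 CPM and that fold with an interval that excludes equal levels. Acaa1b, Ppara, Pparg, Prkca, Dgat2 and Nfe2l2 are exceptions, which were named after their values were seen. The genes, lists and markers were chosen with earlier results of these data known. Scripts ran in Python 3.11.15 with numpy 2.4.6, scipy 1.17.1 and pandas 2.3.3 and were tested on simulated data.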

Additional observations from a re-analysis of the deposited data

Results flagged for a closer look

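Among the mast/basophil-like barcodes, 3 of the genes differed in opposite directions in the mast-leaning and the basophil-leaning part, each at least 25% higher in one part and 20% lower in the other, with a counting interval that excludes equal levels. The log2 ratio (KO over WT) of Fabp5 was 0.90 in mast-leaning and -1.76 in basophil-leaning barcodes. That of Acsl4, the synthetase with the miR-142-3p match, was 0.73 (27.9 and 46.2 CPM) and -0.51 (49.5 and 34.7 CPM). That of Echs1 was -0.42 (80.4 and 60.3 CPM) and 0.53 (90.9 and 131 CPM). With 1 library per group the difference between the parts was not tested, and the split was chosen after the data had been seen.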

How the results depend on the processing

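With 1 library per group no value here has a replicate, and genotype, mouse, sort and library cannot be told apart. Depth limits the genes under 10 CPM, above all Cd36, Cpt1b, Cpt1c and Ehhadh, and the smaller groups. No paired analysis was possible because there was 1 sample in each group. Of the 26 genes, 15 had the same direction in all 8 alternatives to the processing. The splits of the mast/basophil-like and granule-high gates, and leaving out both, were chosen after seeing the data. Unless the make-up of the barcodes shows it, the cause of a change was not tested.

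With median-of-ratios size factors, which move the median of all genes by 0.078, 4 genes stood at least 25% higher, against 11.8% of all genes tested. The log2 ratio of the summed genes was then 0.26. By step it was -0.0096 for uptake, 0.082 for activation, 0.023 for carnitine transport (a change of sign), 0.11 for the dehydrogenases, 0.61 for electron transfer flavoprotein, 0.26 for hydratase to thiolase, 0.11 for the auxiliary enzymes and 0.053 for the peroxisomal enzymes. With both libraries weighted to one make-up of cell groups, the sum was 0.0999, and by step -0.23 for uptake, -0.072 for activation, 0.11 for carnitine transport, 0.068 for the dehydrogenases, 0.34 for electron transfer flavoprotein, 0.12 for hydratase to thiolase and 0.11 for the auxiliary enzymes, while Slc25a20 (0.10) and Acaa1a (-0.0028) changed sign.

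Without granule-high barcodes the sum was 0.14, with 0.27 for uptake, -0.054 for activation, 0.075 for carnitine transport, 0.28 for electron transfer flavoprotein and 0.088 for hydratase to thiolase, and Fabp5 (0.26), Slc25a20 (0.078), Etfa (-0.0032) and Acaa1a (-0.030) changed sign. Without cycling barcodes 4 genes were higher, against 12.2% of all genes, the median ratio was 0.16 and the sum 0.22, with 0.36 for uptake, 0.12 for activation, 0.013 for carnitine transport and 0.47 for electron transfer flavoprotein, and Fabp5 (0.35), Acsl5 (0.095) and Acaa1a (-0.028) changed sign.

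Without likely doublets the sum was 0.20, with 0.014 for uptake, 0.56 for electron transfer flavoprotein and 0.20 for hydratase to thiolase, and Fabp5 was 0.015. With equal weight per barcode uptake was 0.066, Fabp5 0.063 and electron transfer flavoprotein 0.49. With at least 16000 UMIs uptake was -0.14, and with all barcodes over 300 UMIs electron transfer flavoprotein was 0.51. Without Etfb the sum was 0.044. With no filter on low genes 2 genes were at least 20% lower (Cpt1c and Ehhadh), against 37.4% of all genes. With 1 more marker required for a gate, the count of lower genes was 0 in place of 1 in lymphoid-primed-like, 1 in place of 2 in granule-high, 1 in place of 2 in megakaryocyte-like and 1 in place of 0 in mast/basophil-like barcodes, and 4 in place of 2 were higher in megakaryocyte-like barcodes. Hadh was -0.16 in mast-leaning barcodes against 0.34 in the whole gate. The other 69 values answering a comparison stayed within their counting interval or within 1.5 times.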
